A study of Mus musculus with 16 samples.

Results

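The genes described here are the 34 Wnt ligand and receptor genes of the mouse: 19 Wnt ligands, 10 Frizzled receptors and 5 co-receptors, namely Lrp5, Lrp6, Ror1, Ror2 and Ryk. They were taken by gene symbol, and each was found as 1 of the 23234 features of both deposited tables. Laser capture on stained frozen sections gave the tissue, from male wild-type embryos of the outbred mouse stock CD1. At E10.5 (10.5 days after conception) the dorsal and the ventral part of the cloaca were cut, and at E13.5 the hindgut, labelled as epithelium of hindgut and rectum, and the urethra, labelled as epithelium of the pelvic urethra. Each age had 4 embryos that gave both regions, so that 16 unpooled samples form 4 groups of 4.

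Wnt proteins are secreted, lipid-modified signals that act over short distances. A Wnt that binds a Frizzled together with Lrp5 or Lrp6 stabilises beta-catenin, which then switches on target genes with Tcf and Lef factors. Other Wnts act through Ror1, Ror2 or Ryk on cell polarity and movement. In the mouse, Wnt5a is known for the outgrowth of the limbs and the genital tubercle, and beta-catenin is known to be needed in the cloacal epithelium for that outgrowth.

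The authors deposited 1 FPKM value per gene and region (sequenced fragments scaled to transcript length and to library size), and no value per embryo. How far embryos of a group differed therefore cannot be shown, no p-value is given, and no difference has a replicate check. Differences below are ventral minus dorsal on the scale of log2(FPKM + 1), which understates the change of low genes. Genes past a difference of 1 (2-fold) toward a region are counted for that region, which is a rule of size and not of significance. Everywhere below, 2-fold means 2-fold on this scale, which for low genes needs a larger ratio of FPKM. The 2 ages stand in separate tables and may have been normalized separately, so levels at E10.5 and E13.5 are set side by side only. Genes of epithelium were abundant in all 4 columns, with Epcam at 237, 184, 377 and 235 FPKM in dorsal cloaca, ventral cloaca, hindgut and urethra. The sum of 9 such genes was 1909 and 1797 FPKM at E10.5, but 3175 FPKM in hindgut and 1738 in urethra, with Krt19 and Cldn7 counted for the hindgut. The part of this in the results at E13.5 was not tested. The 7 hindgut genes summed to 356 FPKM in the hindgut, of which Lgals4 was 268, and to 2.31 in the urethra. Cdx2, a defining gene of hindgut, was however listed at 0 in the hindgut at E13.5. At E10.5 the 7 summed to 21.6 FPKM in dorsal and 6.79 in ventral cloaca. There Cdx2 and Hnf4a were counted dorsally and Vil1 ventrally (1.83 and 5.99 FPKM).

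More Wnt ligand RNA was measured on the ventral side at both ages. The 19 ligands summed to 19.7 FPKM in dorsal and 77.5 FPKM in ventral cloaca, a 3.93-fold ratio. At E13.5 they summed to 40.3 FPKM in hindgut and 101 FPKM in urethra, a 2.52-fold ratio. The 10 Frizzled receptors differed less, with 207 against 294 FPKM at E10.5 and 153 against 235 FPKM at E13.5. The 5 co-receptors summed to 62.6 and 84.7 FPKM at E10.5 and were nearly level at E13.5, at 72.6 and 75.2 FPKM. In bulk tissue, fewer cells of a type and less RNA per cell cannot be told apart.

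**Figure D1:**
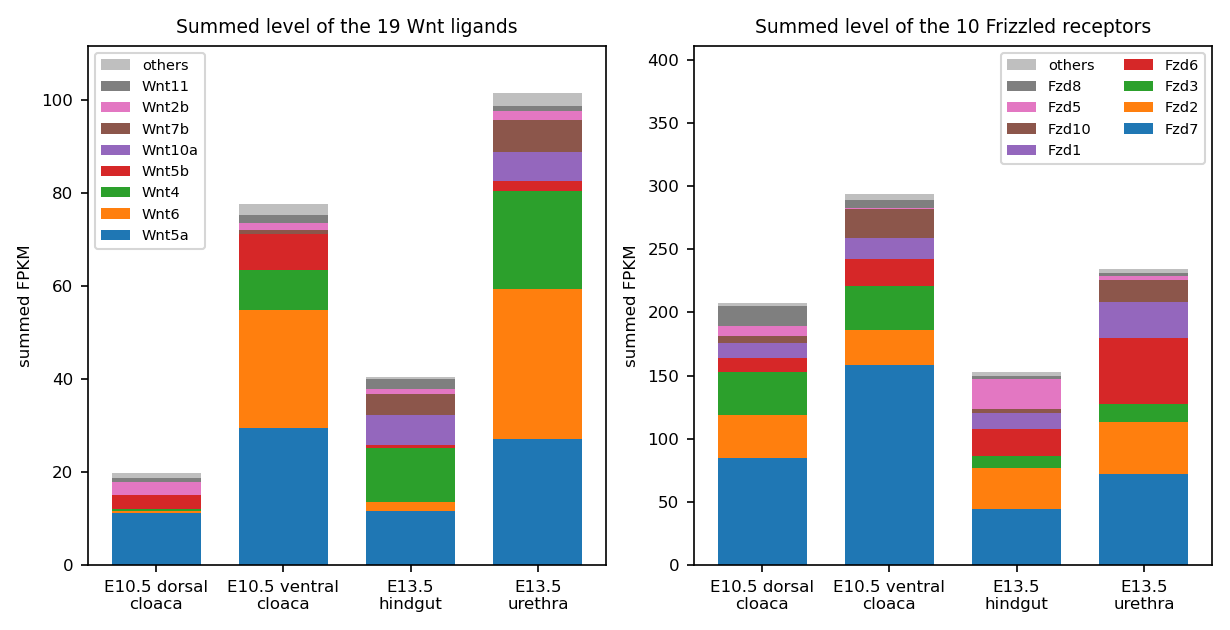
Summed FPKM (vertical axis, from 0) of the 19 Wnt ligands (left) and the 10 Frizzled receptors (right) in the 4 groups, stacked by gene, with 1 deposited value per gene and group and hence no error bars. The ligand bars rise from 19.7 to 77.5 FPKM between dorsal and ventral cloaca and from 40.3 to 101 FPKM between hindgut and urethra, and most of the added height is Wnt6, Wnt5a and Wnt4.

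At E10.5, 5 of the 34 genes were at least 2-fold higher ventrally: the ligands Wnt6, Wnt4, Wnt5a and Wnt5b and the receptor Fzd10. Among all genes 5.63% were, and among those with at least 1 FPKM in either region 10.6% were. The receptors Fzd5 and Fzd8 were at least 2-fold higher dorsally, 2 of 34, where 5.13% of all genes and 9.62% of those above the minimum were. At E13.5, 5 of 34 were higher in the urethra, namely Wnt6, Wnt5a, Fzd10, Fzd6 and Fzd1, beside 2.22% of all genes and 4.16% of those above the minimum. Only Fzd5 among the 34 was higher in the hindgut, beside 2.44% and 4.59%. A minimum of 1 FPKM in either region was passed by 20 members at E10.5 and 22 at E13.5. Their median difference was 0.57 and 0.43, where it was 0.04 and 0.01 over all genes above the minimum. Over all 34 members the medians were 0.31 and 0.25. A member can pass the minimum through the region in which it is high, so the medians over those that passed describe them only.

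Wnt6, a ligand known from surface ectoderm of the mouse embryo, differed most between the regions at both ages. It stood at 0.33 FPKM in dorsal cloaca, 25.5 in ventral cloaca, 1.94 in hindgut and 32.3 in urethra. At each age the ventral value was thus far above the dorsal one, with a difference of 4.31 at E10.5 and 3.50 at E13.5. The low dorsal level makes the size depend on the pseudocount: at E10.5 it was 5.88 with one of 0.1 and 2.51 with one of 5. In urethra Wnt6 had the highest level of all 19 ligands and made up 31.8% of their sum, against 4.81% in hindgut. In ventral cloaca it made up 32.9%, against 1.70% in dorsal cloaca. The gene (XLOC_000198) spans chr1:74771892-74785319 on mm10 and has 4 exons in GENCODE M21.

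The 4 genes that passed 2-fold in the same direction at both ages were Wnt6, Wnt5a, Fzd10 and Fzd5. Promoter sequence from RefSeq (GRCm38.p6) is shown for Wnt6 here and for Fzd5, which differed the other way, further on. Wnt5a is named only. For Wnt6, the 250 bases before its start, on the plus strand at chr1:74771642-74771891, read 5′ to 3′ as follows, with GGGCGG (the GC box) and its reverse complement CCGCCC in capitals.
Wnt6: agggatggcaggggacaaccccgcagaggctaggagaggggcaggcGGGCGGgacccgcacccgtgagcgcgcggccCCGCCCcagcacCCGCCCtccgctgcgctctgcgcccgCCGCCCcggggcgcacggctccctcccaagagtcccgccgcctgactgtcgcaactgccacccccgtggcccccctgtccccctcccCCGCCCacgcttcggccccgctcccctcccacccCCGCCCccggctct
This window was 79.6% G and C and held 6 GC boxes over both strands, a motif found in 32.7% of 32841 RefSeq windows of this length. Neither CTTTGA nor CTTTGT, the short cores of Tcf and Lef sites, occurred in it on either strand. These were present in 13.8% and 16.5% of all windows.

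Wnt4, a ligand needed for kidney tubules and the female reproductive tract of the mouse, was also a ventral gene at E10.5. It stood at 0.42 FPKM in dorsal and 8.49 in ventral cloaca, a difference of 2.74. Pseudocounts of 0.1 and 5 put this at 4.04 and 1.31. At E13.5 both regions were high, with 11.5 FPKM in hindgut and 20.9 in urethra, and the difference was 0.81. Wnt4 was the ligand with the next highest level after Wnt5a in hindgut, at 28.5% of the ligand sum there, against 2.14% in dorsal cloaca. The change of the difference between the ages was not tested.

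Wnt5a, which signals largely through Ror2, had the highest ligand level in 3 of the 4 groups and was next to Wnt6 in urethra. Its values were 11.2 FPKM in dorsal cloaca, 29.3 in ventral cloaca, 11.7 in hindgut and 27.1 in urethra. At each age the ventral value was the higher one. The difference was 1.31 at E10.5 and 1.15 at E13.5, and the latter was 0.94 with a pseudocount of 5. Its share of the ligand sum was 57.0% in dorsal and 37.9% in ventral cloaca, and 29.0% in hindgut and 26.7% in urethra. Wnt5b, its closest relative, stood at 3.12 and 7.72 FPKM at E10.5 and at 0.60 and 2.17 FPKM in hindgut and urethra. Its differences of 1.08 and 0.99 lay on either side of the 2-fold rule, and the former was 0.65 with a pseudocount of 5. The span of Wnt5b in the tables is also that of Fbxl14, at 16.0 to 19.9 FPKM in the 4 columns. In GENCODE M21 no exon of another gene overlaps the exons of Wnt5b's coding transcripts. The annotation behind the deposited values is not stated, so some doubt remains whether the reads of Wnt5b are its own.

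Some ligands were measured at E13.5 and hardly at E10.5, and these were within 2-fold between the regions at E13.5. Wnt10a, a ligand of tooth and hair development, was listed at 0 in both parts of the cloaca and stood at 6.46 FPKM in hindgut and 6.18 in urethra. Wnt7b, a ligand of lung and kidney duct epithelium, stood at 0.021 and 0.86 FPKM at E10.5 and at 4.50 and 7.05 FPKM at E13.5. Its span is shared with AU022754, an antisense gene at 0.010 to 0.85 FPKM. Wnt10a made up 16.0% and Wnt7b 11.2% of the ligand sum in hindgut, and 6.09% and 6.95% in urethra.

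Wnt2b and Wnt11 were low throughout and were not counted at either age. Wnt2b stood at 2.67 FPKM in dorsal cloaca, 1.56 in ventral cloaca, 1.26 in hindgut and 1.79 in urethra. Wnt11, a ligand of cell movement and of the ureteric bud tip, stood at 0.84, 1.69, 2.05 and 1.01 FPKM in the same order. Its difference changed sign, from 0.55 to -0.60. As plain ratios of FPKM these were 2.03-fold toward the ventral cloaca and 2.04-fold toward the hindgut. Exons of Gm8398 overlap 364 bases of Wnt11 on the other strand.

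The other 11 ligands were below 1 FPKM in all 4 columns, as was Fzd9. The values of these 12 genes lay between 0 and 0.94 FPKM, and Wnt1 and Wnt8a were listed at 0 in all 4. In urethra the highest were Wnt9a at 0.94 and Wnt7a at 0.71 FPKM, where hindgut had 0.14 and 0.0039. Wnt16 at 0.73 FPKM in ventral cloaca stood against 0.038 in dorsal cloaca. Wnt3 stood at 0.71 and 0.72 FPKM in dorsal and ventral cloaca. No difference is given for these 12 genes. The ligands with at least 1 FPKM numbered 3 in dorsal cloaca, 6 in ventral cloaca, 7 in hindgut and 8 in urethra.

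**Figure D2:**
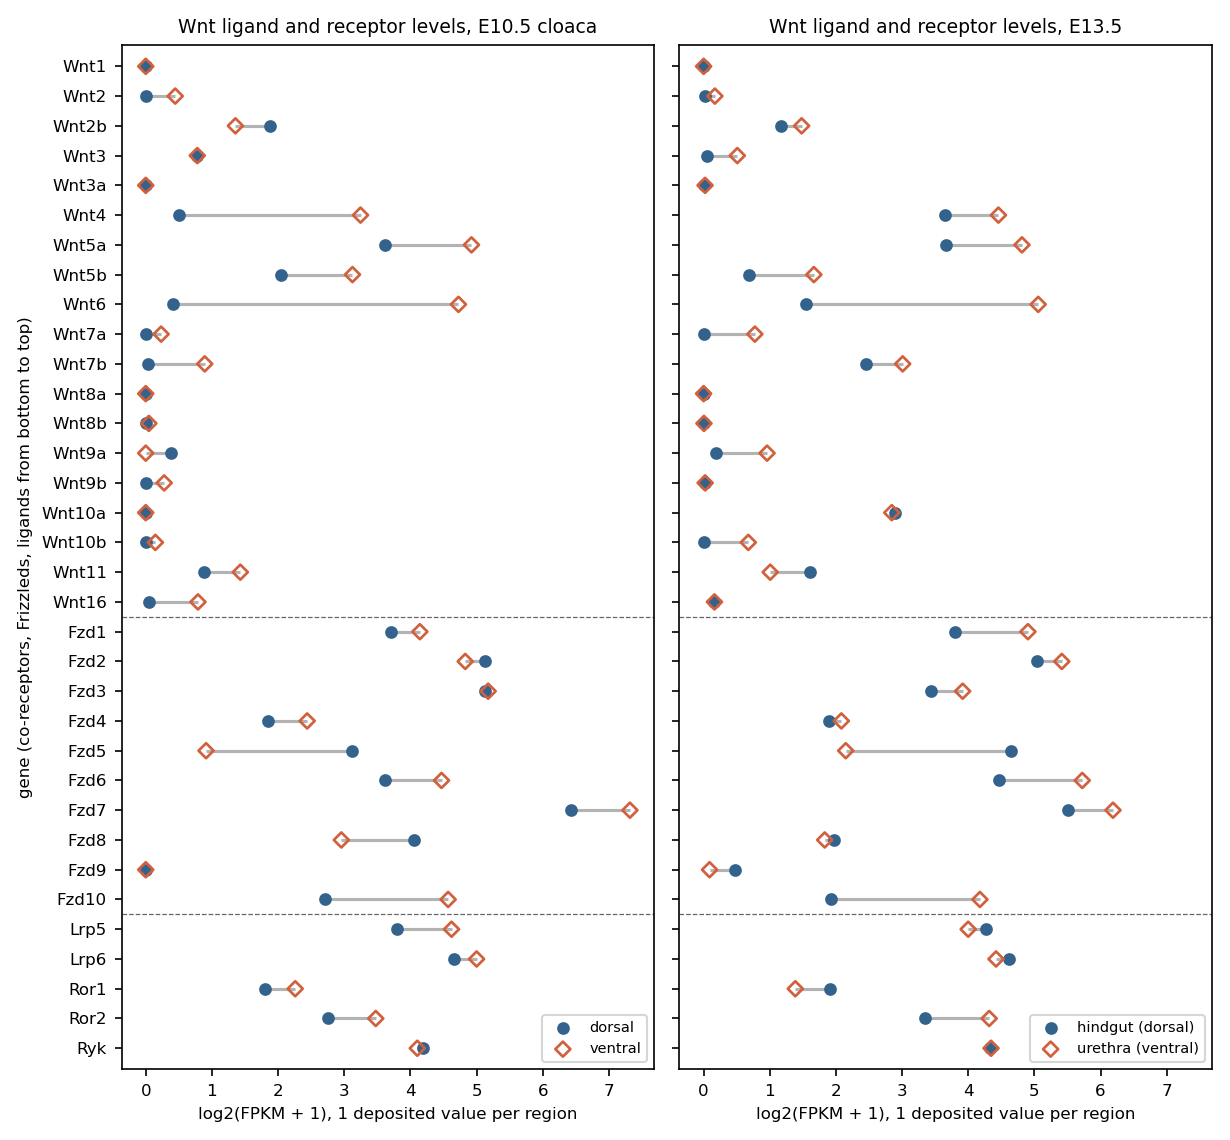
Level of each of the 34 genes on the scale of log2(FPKM + 1) (horizontal axis) at E10.5 (left) and E13.5 (right), with dorsal tissue as filled circles and ventral tissue as open diamonds, 1 deposited value each. The long bars of Wnt6 and Fzd10 run to the ventral side and that of Fzd5 to the dorsal side at both ages, while 12 genes lie below 1 FPKM in all 4 columns.

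The 19 ligands include 4 pairs within 100 kb of each other with no other feature of the tables between them. Wnt6 and Wnt10a are 6.70 kb apart on chromosome 1, and at E10.5 Wnt10a was listed at 0 ventrally where Wnt6 stood at 25.5 FPKM. At E13.5 Wnt6 stood at 1.94 and 32.3 FPKM in hindgut and urethra and Wnt10a at 6.46 and 6.18. In the other pairs, Wnt10b with Wnt1 on chromosome 15 and Wnt9b with Wnt3 and Wnt3a with Wnt9a on chromosome 11, all values were below 1 FPKM.

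Among the Frizzled receptors, Fzd7 had the highest level in all 4 groups. It stood at 84.9 FPKM in dorsal and 159 in ventral cloaca, above 97.0% and 98.5% of all features, and at 44.6 FPKM in hindgut and 71.9 in urethra. The ventral value was higher at each age, but the differences of 0.89 and 0.68 stayed within 2-fold. Fzd7 made up 54.0% of the Frizzled sum in ventral cloaca and 40.9% in dorsal cloaca, and 29.1% in hindgut and 30.6% in urethra.

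Fzd10 and Fzd5 were the receptors that parted the regions most, in opposite directions. Fzd10 stood at 5.51 FPKM in dorsal cloaca and 22.8 in ventral cloaca, and at 2.81 in hindgut and 17.1 in urethra. Its differences were 1.87 and 2.25, the largest toward the ventral side of any receptor at either age. Fzd5, which is needed for the maturation of Paneth cells in the mouse gut, stood at 7.67 FPKM in dorsal and 0.88 in ventral cloaca. At E13.5 it stood at 23.9 FPKM in hindgut and 3.43 in urethra. Its differences of -2.20 and -2.49 were the lowest of the 34 genes at both ages, and the former was -1.11 with a pseudocount of 5. In hindgut it was the third most abundant Frizzled, at 15.6% of their sum, against 1.46% in urethra. In GENCODE M21 exons of Gm38058 overlap 1233 of the 6915 exonic bases of Fzd5 on the other strand. Reads in that overlap cannot be told apart unless they were counted by strand, which no source used here states.

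The window of Fzd5 is shown to set a dorsal gene beside the ventral gene Wnt6, again as the 250 bases before the RefSeq start with GC boxes in capitals, written 5′ to 3′ along its own, minus strand (chr1:64737751-64738000).
Fzd5: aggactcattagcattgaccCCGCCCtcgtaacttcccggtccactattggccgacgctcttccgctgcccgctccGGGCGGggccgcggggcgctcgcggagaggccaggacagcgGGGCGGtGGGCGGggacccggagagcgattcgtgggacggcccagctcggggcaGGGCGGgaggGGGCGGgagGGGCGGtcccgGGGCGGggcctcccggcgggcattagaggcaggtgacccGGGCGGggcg
This window was 76.4% G and C and held 9 GC boxes. The Tcf and Lef cores named above were absent from it on either strand. So was the TATA motif TATAAA, found in 12.4% of all windows. The motif TTTATTG, bound by Cdx factors and found in 4.21% of all windows, was absent as well. The RefSeq window of Fzd10 is not printed, because GENCODE M21 starts the gene at chr5:128600844, before that window. Of the 34 genes, 24 matched the RefSeq table, with 27 windows. Their median content of G and C was 71.6%, where that of all windows was 52.4%.

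Fzd8, the closest relative of Fzd5, was the other dorsal gene at E10.5. It stood at 15.6 FPKM in dorsal and 6.76 in ventral cloaca, a difference of -1.10 that was -0.81 with a pseudocount of 5. At E13.5 it was low on both sides, at 2.93 FPKM in hindgut and 2.56 in urethra. Fzd5 and Fzd8 together made up 11.2% of the Frizzled sum in dorsal cloaca and 2.60% in ventral cloaca, and 17.5% in hindgut and 2.55% in urethra. The order of the 2 receptors differed between the ages on both sides: Fzd8 was the higher of the pair at E10.5 and Fzd5 at E13.5. Fzd5 stood at 0.88 FPKM in ventral cloaca and at 3.43 in urethra, where the 2 were close.

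Fzd6 and Fzd1 were counted as urethral genes at E13.5. Fzd6, a receptor of planar polarity known for the orientation of hairs, stood at 21.2 FPKM in hindgut and 51.8 in urethra, a difference of 1.25. Exons of Gm26704 overlap 152 bases of Fzd6 on the other strand. At E10.5 it leaned the same way within 2-fold, at 11.3 and 21.2 FPKM. Fzd1 stood at 12.9 FPKM in hindgut and 28.9 in urethra, with a difference of 1.11 that was 0.92 with a pseudocount of 5. In dorsal and ventral cloaca Fzd1 stood at 12.1 and 16.7 FPKM.

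Fzd2, Fzd3 and Fzd4 were within 2-fold at both ages. Fzd2, a close relative of Fzd1 and Fzd7, stood at 33.9 FPKM in dorsal cloaca, 27.4 in ventral cloaca, 31.9 in hindgut and 41.6 in urethra. Fzd3, a receptor of axon guidance, stood at 33.8 and 35.1 FPKM in the cloaca and at 9.80 and 14.1 FPKM in hindgut and urethra. Fzd4, the receptor that also binds Norrin, stood at 2.61, 4.42, 2.71 and 3.23 FPKM in the same order of groups. Among the 10 Frizzled genes 6 have 1 exon only in GENCODE M21 (Fzd1, Fzd2, Fzd7, Fzd8, Fzd9 and Fzd10), while none of the 19 ligands has a coding transcript of 1 exon.

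None of the 5 co-receptors passed the 2-fold rule at either age. Lrp6, the main partner of Frizzled in beta-catenin signalling, stood at 24.2 FPKM in dorsal cloaca, 31.0 in ventral cloaca, 23.4 in hindgut and 20.4 in urethra. Lrp5 stood at 12.9 and 23.6 FPKM in the cloaca and at 18.2 and 15.0 in hindgut and urethra. Both leaned to the ventral side at E10.5, by 0.35 and 0.82, and slightly to the hindgut at E13.5, by -0.19 and -0.27. Ryk, an atypical kinase receptor of Wnts, was almost level, between 16.2 and 19.3 FPKM in the 4 columns.

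Ror2, the receptor of Wnt5a, came closest to the rule among the co-receptors, with a plain ratio of 2.07 at E13.5. It stood at 5.76 FPKM in dorsal and 10.1 in ventral cloaca, and at 9.14 FPKM in hindgut and 18.9 in urethra. Its differences of 0.72 and 0.97 ran the same way as those of Wnt5a, and the second was 1.04 with a pseudocount of 0.1. Ror1 stood lower, at 2.50 and 3.79 FPKM in the cloaca and 2.75 and 1.61 in hindgut and urethra.

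Between the ages, 4 genes were counted in the same direction at both and none in opposite directions. Wnt4 and Wnt5b were counted as ventral at E10.5 only, and Fzd1 and Fzd6 at E13.5 only. Of the 20 genes above the minimum at both ages, 13 had a difference of the same sign and 7 of the opposite sign. None of those 7 was past 2-fold at either age. How often all genes kept or changed direction between the ages was not counted. These numbers therefore describe the members only and do not set them apart from other genes.

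**Figure D3:**
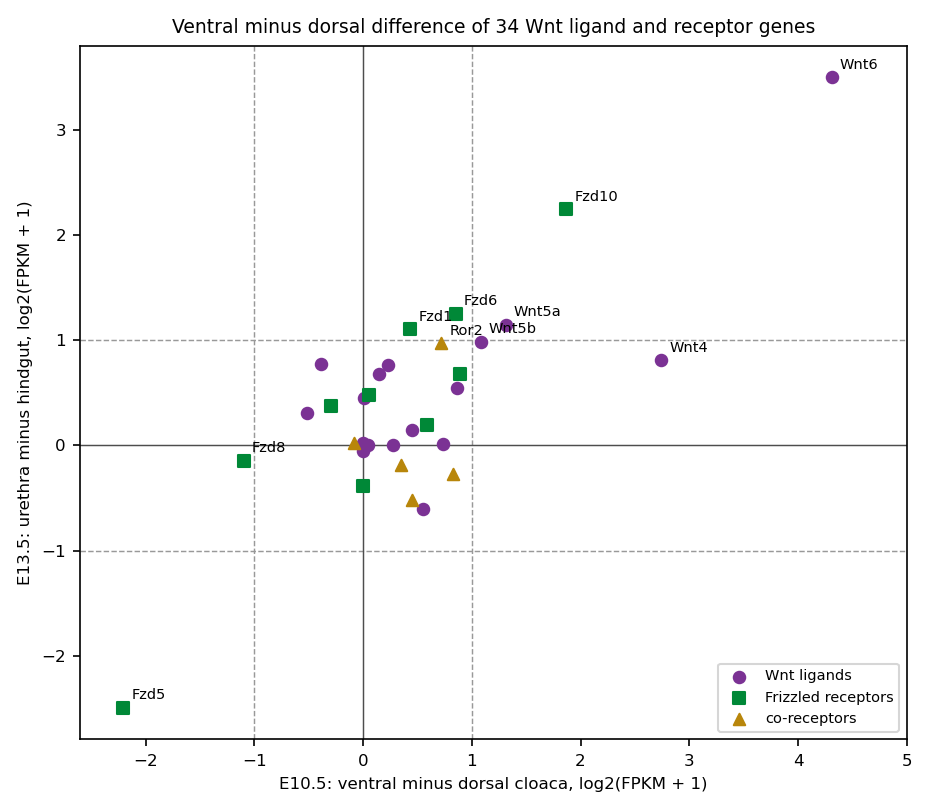
Difference of log2(FPKM + 1), ventral minus dorsal cloaca at E10.5 (horizontal axis) against urethra minus hindgut at E13.5 (vertical axis), 1 point per gene, with dashed lines at the 2-fold rule. Wnt6 (4.31 and 3.50), Fzd10 (1.87 and 2.25) and Wnt5a (1.31 and 1.15) lie past the lines at upper right and Fzd5 (-2.20 and -2.49) at lower left.

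Lists of marker genes were also compared between the same tissue pieces. The 7 genes listed for surface ectoderm, among them Krt5, Krt14 and Trp63, summed to 13.6 FPKM in dorsal and 193 in ventral cloaca. Of these 7, 6 were higher ventrally and none dorsally, with a range of 0.36 to 86.7 FPKM ventrally. At E13.5 they summed to 821 FPKM in hindgut and 1308 in urethra, with 3 of 7 higher in urethra. Of these sums Krt15 alone was 517 FPKM in hindgut and 474 in urethra. Krt15, Trp63 (75.6 and 151 FPKM) and Perp (172 and 222 FPKM) were within 2-fold at E13.5. At that age the listed genes were thus not confined to the urethra. Krt14 was listed at 0 in dorsal cloaca. The 8 mesenchyme genes summed to 106 and 109 FPKM at E10.5 and to 109 and 112 FPKM at E13.5. Of these 8, 1 was counted on each side at E10.5, and at E13.5 the urethra had 1 and the hindgut 2, the collagen genes Col1a2 and Col3a1. The 6 macrophage genes summed to 7.91 and 3.37 FPKM at E10.5, and to 2.92 FPKM in hindgut and 29.2 in urethra, where 4 of 6 were counted as higher. The part of cells that express the listed genes in the ventral levels of Wnt6, Wnt4, Wnt5a and Fzd10 was not tested. All 5 endothelial genes were below 1 FPKM in every column.

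The rest of the Wnt pathway was described by lists of genes that are not members, with the shares of all genes given above as background. In the list of 5 genes of ligand secretion, Wls, the carrier that brings Wnts to the cell surface, was higher in ventral cloaca, at 17.2 and 54.8 FPKM, and within 2-fold at E13.5, at 23.5 and 32.8 FPKM. The other 4 genes were within 2-fold at both ages, and the median of the list was -0.02 at E10.5 and -0.26 at E13.5. Of 11 surface cofactors, 2 were higher ventrally at E10.5 and 1 at E13.5, with none dorsally and medians of 0.35 and 0.22 over those above the minimum, or 0.17 and 0.02 over all 11. These were the glypicans Gpc4 (5.44 and 35.4 FPKM) and Gpc1 (19.2 and 41.3 FPKM) in the cloaca, and Gpc3 in hindgut and urethra (60.0 and 172 FPKM). The spans of Gpc1 and Gpc3 hold another feature of the tables.

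Antagonists were counted in both directions. Of 18 genes, 6 were higher ventrally and 1 dorsally at each age, and the medians over the 10 and 12 above the minimum were 1.13 and 1.04. Over all 18 they were 0.01 and 0.22. Apcdd1, a membrane inhibitor of Wnt signalling, stood at 4.79 and 88.1 FPKM in the cloaca and 3.91 and 18.2 FPKM at E13.5. Wif1, which binds Wnts, stood at 0.23 and 1.76 FPKM and at 1.05 and 11.8 FPKM. Kremen2, a receptor of Dkk proteins, was counted at E13.5 at 0.070 and 4.01 FPKM.

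The R-spondin list of 9 genes holds the 4 R-spondins, which strengthen Wnt signals, their receptors Lgr4, Lgr5 and Lgr6, and Rnf43 and Znrf3, which remove Frizzled from the cell surface. At E10.5, 1 of the 9 was counted ventrally and 2 dorsally, and the median was -0.18 over the 6 above the minimum but 0.16 over all 9. At E13.5, 2 were counted for the urethra and none for the hindgut, with medians of 0.64 and 0.51. Rspo2 stood at 0.040 and 17.4 FPKM and Rspo3 at 5.82 and 0.62 FPKM in dorsal and ventral cloaca, and Rspo1 stood at 1.52 FPKM dorsally and was listed at 0 ventrally. At E13.5 Lgr6, a receptor of R-spondins, stood at 0.47 FPKM in hindgut and 1.97 in urethra, and Rspo2 at 0.0025 and 1.14 FPKM.

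Inside the cell, most genes of the pathway's core were within 2-fold, but at E10.5 they leaned both ways. Ctnnb1, the gene of beta-catenin and the most abundant of them, stood at 426 and 272 FPKM in the cloaca, a difference of -0.65. At E13.5 it stood at 482 and 450 FPKM. The list summed to 780 and 650 FPKM at E10.5 and to 842 and 853 FPKM at E13.5. Of 13 cytoplasmic genes, Axin2 alone was higher ventrally at both ages (12.4 and 30.8 FPKM in the cloaca, 5.20 and 11.7 FPKM in hindgut and urethra), and Gsk3a alone dorsally at E10.5 (36.2 and 16.7 FPKM). The medians over the 12 above the minimum were 0.15 and 0.14. Of 12 planar polarity genes none was counted at E10.5 and only Dact1 at E13.5, at 9.86 FPKM in hindgut and 40.9 in urethra. The medians were 0.51 and 0.04 over the 9 and 10 above the minimum, and 0.10 and 0.07 over all 12.

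Nuclear factors split at E10.5, with 2 of 8 higher ventrally and 2 dorsally and a median of -0.58. Lef1 stood at 5.64 and 73.1 FPKM and Tcf7 at 6.64 and 30.5 FPKM, while the beta-catenin cofactors Pygo2 (11.8 and 4.04 FPKM) and Pygo1 (39.6 and 18.1 FPKM) ran the other way. At E13.5 only Lef1 was counted, at 0.58 FPKM in hindgut and 10.3 in urethra, and the median was 0.47. Of 18 known target genes, 9 were higher ventrally and none dorsally at E10.5, while at E13.5 the urethra had 7 and the hindgut 2, with medians of 1.35 and 0.82 over those above the minimum and of 1.00 and 0.56 over all 18. The 2 hindgut genes were Cdx1 (18.3 and 0.37 FPKM) and Dkk1 (2.38 and 0.49 FPKM). Lef1, Axin2, Apcdd1, Dkk1, Notum, Lgr5, Rnf43 and Znrf3 each stand in the target list and in another list, so these counts share genes. Cdx1 is also among the hindgut genes summed above.

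**Figure D4:**
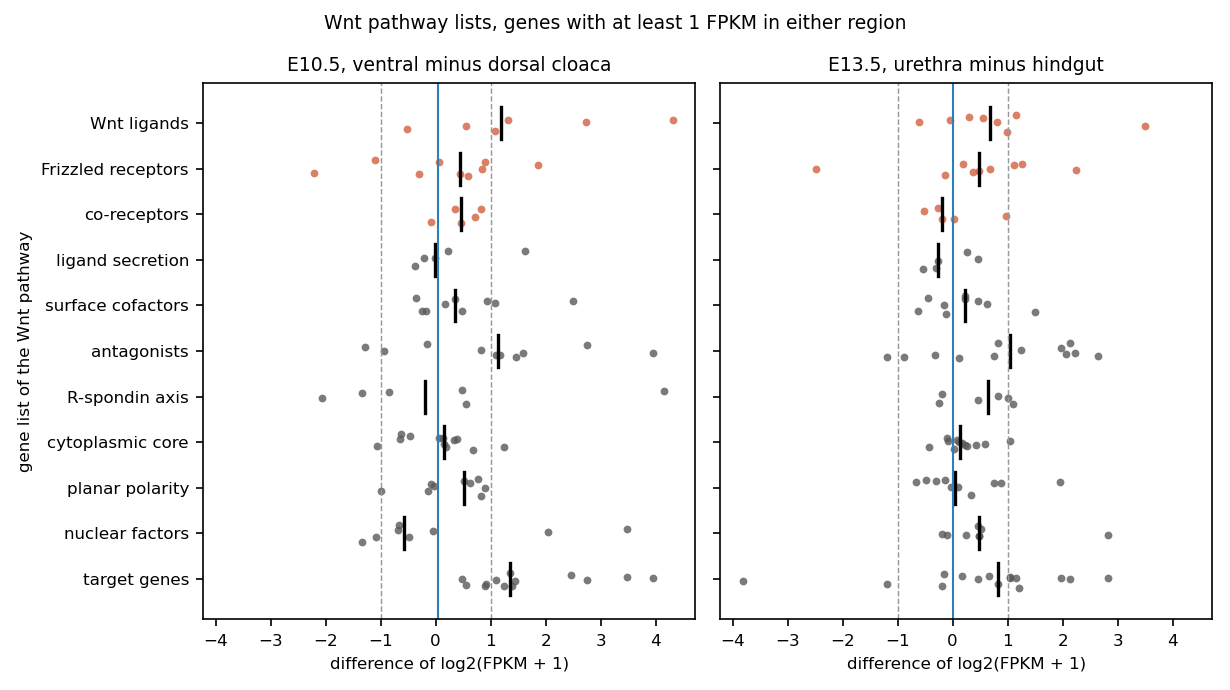
Difference of log2(FPKM + 1), ventral minus dorsal, at E10.5 (left) and E13.5 (right) for the genes above the minimum in each Wnt pathway list, 1 point per gene (members in orange), with the median of each list as a black bar, that of all genes as a blue line and the 2-fold rule as dashed lines. The target genes have medians of 1.35 and 0.82 and the cytoplasmic core 0.15 and 0.14.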

How the data were processed

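Per the labels' protocols, the RNA of each sample was amplified before library construction. The authors deposited FPKM values, 1 column per region in each of 2 tables, per the file headers. The submitters' processing notes name mm10 as the build and Cufflinks 2.2.1 as a tool. No source used here states the aligner, the gene annotation, whether strand was used, or how 4 libraries became 1 column, and those steps set every value. FPKM times exonic length showed no steps of whole reads (at most 24.2% of low values within 0.1 of a whole number, where 20% would be by chance), so the depth is unknown. A value of 0 can be a failed estimate and is given as listed at 0, with no fold.

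Members were matched by symbol, with names split at commas. Differences are of log2(FPKM + 1) with a minimum of 1 FPKM in either region and were computed in Python 3.11.15 with pandas 2.3.3. A test needs values per library, so none was run. The counting was tested on simulated data without noise or replicates, which checks that the rule runs as written and not how precise the values are. Starts were raised by 1 so that positions count from 1. Exons are from GENCODE M21 and promoters from RefSeq, both of the build that mm10 names. The members and lists were chosen with earlier results of these data known. All members are accounted for, those with at least 1 FPKM in any column with their values. Up to 4 genes per other list were named, those with the largest differences. Cdx1, Frzb, Ctnnb1, Epcam and the marker genes were named outside that rule or after their values were seen.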

Additional observations from a re-analysis of the deposited data

Results flagged for a closer look

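Of 120 genes of the Wnt lists and members, 2 were past 2-fold in opposite directions at the 2 ages, both of them secreted antagonists. The change of direction was not tested, since each rests on 1 deposited value per region. How many of all genes changed direction in this way was not counted, so the 2 are not read as a trait of antagonists. Dkk1, which blocks Lrp5 and Lrp6, stood at 0.22 FPKM in dorsal and 7.19 in ventral cloaca, a difference of 2.75 on the log2(FPKM + 1) scale, and at 2.38 FPKM in hindgut and 0.49 in urethra, a difference of -1.18. Frzb, which binds Wnts, stood at 13.4 FPKM in dorsal and 4.89 in ventral cloaca, a difference of -1.29, and at 0.52 FPKM in hindgut and 5.35 in urethra, a difference of 2.06.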

How the results depend on the processing

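Upper-quartile scaling and quantile normalization left all 5 and 2 counts at E10.5 and 5 and 1 at E13.5 as they were, and kept the ligand ratio between 3.81 and 3.93 at E10.5 and between 2.50 and 2.56 at E13.5. Without the 2 genes of a shared span the ratios were 4.16 and 2.62, an alternative for these sums chosen after seeing the data, as were both scalings for them. A pseudocount of 5 gave 4 and 1 at E10.5 and 3 and 1 at E13.5, and one of 0.1 gave 7 for the urethra. The median difference at E10.5 was 0.77 with a pseudocount of 0.1, 0.33 with one of 5, 0.31 with no minimum and 0.77 with a minimum of 5 FPKM. At E13.5 the median was 0.25 without a minimum and 0.61 at 5 FPKM. Over all genes a pseudocount of 5 left 401 ventral and 325 dorsal genes at E10.5 (1308 and 1191 as reported) and 173 and 227 at E13.5 (515 and 568), a pseudocount of 0.1 gave 864 in urethra, and a minimum of 5 FPKM left 823 and 691, and 298 in urethra. No minimum and the higher one change which genes enter, and the pseudocount shrinks the differences of low genes by construction. Of the 42 differences of single members, 38 stayed on their side of 2-fold with a pseudocount of 5 and 40 with one of 0.1, and no direction changed.

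No paired analysis was possible because the tables hold 1 value per region, and leaving out each replicate was not run for the same reason. Without values per embryo or depth, the precision of every value is unknown, most of all for genes below 1 FPKM.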
